A study of Mus musculus with 16 samples.

Results

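C-type lectin receptors were taken by gene symbol: all genes named Clec with a number and a letter, the mouse DC-SIGN homologs Cd209a to Cd209g, the mannose receptor gene Mrc1 and the DEC-205 gene Ly75. The rule gave 40 genes of the 23356 in the table. No measured value entered the choice. RNA-seq had been carried out on bone marrow-derived dendritic cells (BMDCs) from C57BL/6 mice, wild-type or deficient in Tmem173 (Tmem173-/-), in Irf1 (Irf1-/-) or in both Irf3 and Irf7 (Irf3/7-/-), cultured in GM-CSF plus IL-4. Tmem173 encodes STING, the receptor of the bacterial second messenger c-di-GMP, and Irf1, Irf3 and Irf7 encode transcription factors that act downstream of innate sensors. In each genotype BMDCs were left without treatment for 18 h (NT) or stimulated for 18 h with c-di-GMP at 25 μg/ml (CDG), which gave 8 conditions with 2 samples each, 16 in all. The dose is that of the labels, and legends of the study give a higher one for its RNA-seq. The authors combined the 2 samples of a condition into 1 FPKM (a read level corrected for transcript length and library size) with the bounds of its confidence interval. The knockout mice lack the gene in all cells, the methods give sex-matched young adult mice for all experiments, and the labels do not say which mice a culture came from.

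C-type lectin receptors are surface proteins of myeloid cells that recognise sugars, lipids and damaged cells through a shared lectin-like fold. Some pair with the adaptors FcRγ or DAP12, which recruit the kinase Syk and, through CARD9, BCL10 and MALT1, lead to NF-κB. Some carry an inhibitory motif (ITIM) that recruits phosphatases, and others, such as the mannose receptor and DEC-205, serve mainly to take up antigen. Immature dendritic cells are known for many endocytic lectins, and several of these are lost as the cells mature.

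A gene was called higher or lower in a comparison when its FPKM differed over 2-fold on the log2(FPKM + 0.1) scale, the authors' intervals of both conditions did not overlap, and one of the 2 conditions had at least 1 FPKM. All log2 values below are differences on this scale, which understates the change of low genes. No p-value was computed, since the table holds no value per replicate. The authors' interval was used instead, and it cannot be checked against the spread of a gene's own 2 samples. For members at 10 FPKM or more, the median half-width of the interval ranged over the 8 conditions from 24.1% to 27.1% of the value. FPKM values do not give the depth of a library.

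The conditions differed in more than the labels. All 9 dendritic cell markers were above 0 in every condition, with a summed level of 4976 to 8920 FPKM. Cd74 alone was at 3336 to 4983 FPKM. Xcr1, a marker of the cross-presenting subset, was at 0.168 to 1.12 FPKM and Flt3 at 1.17 to 2.75 FPKM. Against wild-type BMDCs of the same treatment, H2-Ab1 and H2-Aa were called lower in Irf1-/- BMDCs, untreated as well as treated. In treated Tmem173-/- BMDCs Ccr7, Batf3 and Xcr1 were called lower and Itgax higher, and in untreated ones Ccr7 lower. In treated Irf3/7-/- BMDCs Flt3 was called higher. Of 8 neutrophil markers 7 were in the table, and in Tmem173-/- BMDCs they summed to 20003 FPKM without and 14533 FPKM with treatment, while the other 6 conditions had 1407 to 4015 FPKM. The sum of 7 T and NK cell markers was 391 to 1138 FPKM in wild-type and Irf3/7-/- BMDCs, and 2.30 to 13.9 FPKM in Tmem173-/- and Irf1-/- BMDCs, where Ncr1 or Gzma was listed at 0. The sum of 9 macrophage markers was 32.4 to 59.8 FPKM in Irf1-/- BMDCs and 114 to 217 FPKM elsewhere, with Vsig4 listed at 0 throughout. Basophil and mast cell markers summed to 178 and 269 FPKM in untreated and treated Irf3/7-/- BMDCs and to 64.6 to 121 FPKM elsewhere, B cell markers to 3.34 to 10.7 FPKM and plasmacytoid DC markers to 5.62 to 12.8 FPKM. The 8 values are from bulk cultures, so fewer cells of a type and less RNA per cell cannot be told apart.

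Of the targeted genes, Tmem173 was at 8.97 and 7.49 FPKM in untreated and treated Tmem173-/- BMDCs and at 77.0 to 118 FPKM elsewhere. Irf1 was at 25.9 and 116 FPKM in untreated and treated Irf1-/- BMDCs, and wild-type BMDCs had 149 and 245 FPKM. Irf7 was at 1.07 and 4.97 FPKM in the Irf3/7-/- conditions, compared with 15.2 and 687 FPKM in the wild type. Irf3 was at 7.74 FPKM in untreated and at 20.2 FPKM in treated Irf3/7-/- BMDCs, compared with 19.9 and 15.8 FPKM in the wild type, so Irf3 was not lower in the treated condition labelled Irf3/7-/-. A gene-level FPKM also counts exons outside a deleted part and is therefore a weak check of a knockout. Below, Irf1-/- and Irf3/7-/- name conditions by their labels.

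The promoters of the members that moved most in wild-type BMDCs are shown for reference. They run from 250 bases before to 50 bases from the start site of the RefSeq transcript, in the sense of the gene, on build GRCm38.p6. Clec4e (chr6:123289822-123290121, minus strand) and Clec4d (chr6:123261857-123262156, plus strand) had the largest rises. Clec4b1 (chr6:123049712-123050011, plus strand) and Mrc1 (chr2:14229164-14229463, plus strand) had the largest falls. Capitals mark a match to the core of the interferon-stimulated response element, GAAANNGAA, on either strand.
Clec4e: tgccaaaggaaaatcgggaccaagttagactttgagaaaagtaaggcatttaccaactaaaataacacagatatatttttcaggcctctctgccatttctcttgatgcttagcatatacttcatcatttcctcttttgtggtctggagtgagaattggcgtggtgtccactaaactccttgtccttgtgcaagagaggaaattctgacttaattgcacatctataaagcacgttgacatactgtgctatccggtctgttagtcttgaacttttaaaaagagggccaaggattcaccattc
Clec4d: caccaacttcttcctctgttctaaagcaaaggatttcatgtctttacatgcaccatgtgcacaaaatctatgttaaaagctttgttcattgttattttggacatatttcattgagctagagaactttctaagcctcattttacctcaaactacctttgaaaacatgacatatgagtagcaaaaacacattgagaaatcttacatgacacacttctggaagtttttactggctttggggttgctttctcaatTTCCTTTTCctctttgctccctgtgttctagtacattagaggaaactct
Clec4b1: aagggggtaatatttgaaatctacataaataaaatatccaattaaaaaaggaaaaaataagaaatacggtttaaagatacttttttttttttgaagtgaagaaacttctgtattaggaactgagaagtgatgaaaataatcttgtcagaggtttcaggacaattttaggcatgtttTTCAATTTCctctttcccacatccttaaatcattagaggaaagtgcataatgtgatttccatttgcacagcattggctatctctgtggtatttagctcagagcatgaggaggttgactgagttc
Mrc1: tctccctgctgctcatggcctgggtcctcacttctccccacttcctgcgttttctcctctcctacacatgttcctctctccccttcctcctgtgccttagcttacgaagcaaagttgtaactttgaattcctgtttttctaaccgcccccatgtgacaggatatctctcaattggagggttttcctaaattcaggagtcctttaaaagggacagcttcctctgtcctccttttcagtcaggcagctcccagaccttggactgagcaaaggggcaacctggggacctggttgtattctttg
The Clec4d match began 2 bases from the start site and the Clec4b1 match 74 bases before it, both on the minus strand, and the Clec4e and Mrc1 windows held none. Entries were found for 34 of the 40 members. The element matched in 7 of these 34 (Clec12b, Clec2d, Clec2e, Clec2h, Clec4b1, Clec4d and Clec9a) and in 8.56% of all 32851 promoter windows. For every motif, members are counted as genes and the share over all is of windows, of which a gene can have more than 1. The Clec2e and Clec2h matches lie in a stretch of letters common to both windows. Clec12b, Clec2e and Clec2h stayed under 1 FPKM in all 8 conditions. The STAT element TTCNNNGAA, which reads the same on both strands, matched in 1 member, Clec4a2, and in 8.30% of all windows. The PU.1 element GAGGAAG matched in 8 members (Clec12a, Clec16a, Clec18a, Clec2h, Clec4a1, Clec4d, Clec5a and Mrc1) and in 13.6% of all windows. The κB consensus matched in 2 members, Clec1b and Clec2l, and in 8.46% of all windows. All motifs were searched on both strands, and no match of a motif overlapped a match of another. A match describes the letters of the window only, and so does its absence.

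Of the 40 genes, 24 reached 1 FPKM in at least 1 condition, 16 reached 10 FPKM, and 21 were called in at least 1 of 11 comparisons. The 16 include activating receptors, the DCIR family, the Dectin-1 cluster, the Clec2 family and endocytic receptors. The other 16 genes stayed under 1 FPKM in all 8 conditions. Cd209f, Cd209g, Clec18a and Clec4f were listed at 0 throughout, and Cd209b, Cd209d, Cd209e, Clec11a, Clec12b, Clec14a, Clec1a, Clec2e, Clec2h, Clec3a, Clec3b and Clec4g were not. The FPKM of the 40 genes summed to 1285 in untreated and 1847 in treated wild-type BMDCs. The sum was 1166 and 976 FPKM in Irf1-/-, 1415 and 2388 in Irf3/7-/-, and 3163 and 2805 in Tmem173-/- BMDCs, untreated and treated respectively.

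A pair of genes held most of this sum in every condition. Clec4n, which encodes Dectin-2, a receptor of fungal mannans, led in all 4 untreated conditions and in treated Tmem173-/- BMDCs. Clec7a, which encodes the β-glucan receptor Dectin-1, led in treated wild-type, Irf1-/- and Irf3/7-/- BMDCs. Together they held between 60.9% of the sum, in treated Irf1-/-, and 76.3%, in treated Irf3/7-/- BMDCs. Clec4n alone held 37.5% in untreated wild-type and 62.1% in untreated Tmem173-/- BMDCs.

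**Figure D1:**
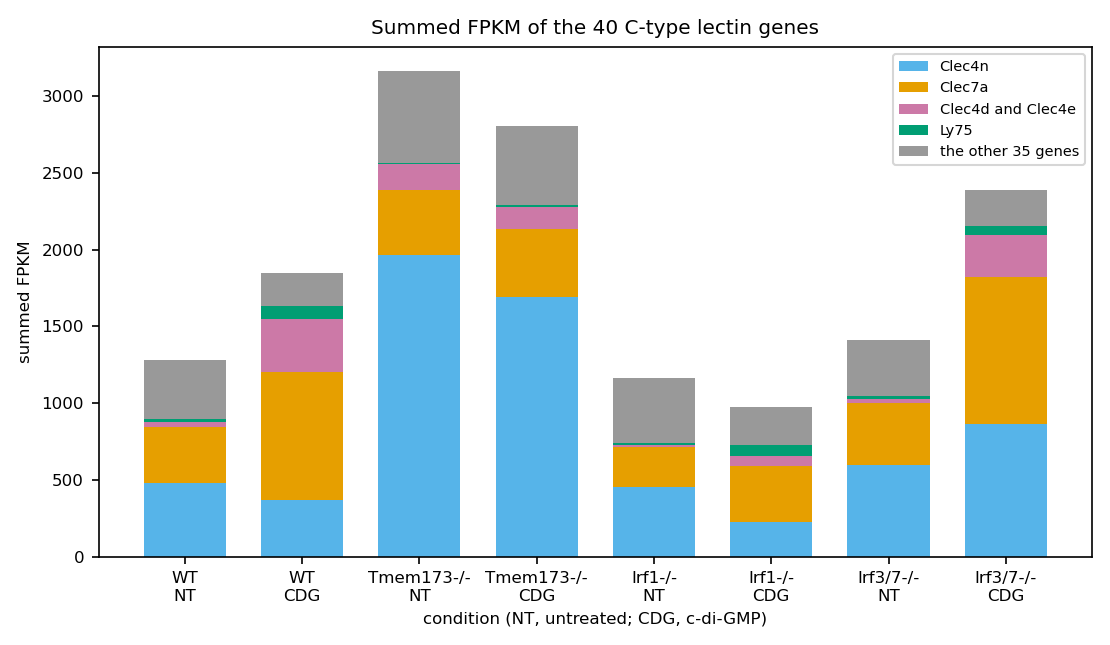
Summed FPKM (linear axis) of the 40 C-type lectin genes in each of the 8 conditions, divided into Clec4n, Clec7a, Clec4d with Clec4e, Ly75 and the other 35 genes. The sum was highest in untreated Tmem173-/- BMDCs, at 3163 FPKM, of which Clec4n held 62.1%, and lowest in treated Irf1-/- BMDCs, at 976 FPKM.

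The first comparison asked how c-di-GMP changed these receptors in wild-type BMDCs. Expression moved in both directions: the Mincle gene Clec4e, its partner Clec4d, Clec7a and Ly75 rose, while the mannose receptor gene Mrc1, Clec10a, the DCAR genes Clec4b1 and Clec4b2, DCIR genes and others fell. Of 21 members tested, 4 were called higher and 9 lower, in a comparison in which 10.5% of 11201 genes were called higher and 9.96% lower. Of the 9, Clec4b1 and Mrc1 passed the filter only through their untreated level. Of the 6 members grouped as activating receptors that pair with FcRγ or DAP12, 2 rose and 3 fell. Clec7a is not in this group and is given with the Dectin-1 cluster. Of the 3 DCIR genes tested 2 fell. The median log2 change was -0.39 over the members and 0.00 over all genes tested. The neutrophil marker sum was 4015 FPKM before and 1905 FPKM after treatment, and its part in the falls was not tested. S100a8 and S100a9 held most of this sum and were the 2 of 7 markers called lower. Camp, at 18.8 and 37.0 FPKM, and Ngp, at 93.4 and 104 FPKM, were higher after treatment without a call. Elane, Mpo and Ltf were lower without a call. Both S100a8 values, 2531 and 1105 FPKM, lie above the upper bound of their own interval. Among 7 macrophage markers tested, C1qa, C1qb and C1qc were called lower and Mertk and Fcgr1 higher, and their part in the changes was not tested.

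Among activating receptors, Clec4e (chr6:123281789-123289871), which encodes Mincle, a receptor of mycobacterial cord factor, was at 12.6 FPKM (interval 9.05 to 16.2) in untreated and 234 FPKM (173 to 295) in treated wild-type BMDCs. In the knockouts Clec4e was at 5.66 and 41.5 FPKM in Irf1-/-, 11.2 and 151 in Irf3/7-/-, and 58.1 and 55.7 in Tmem173-/- BMDCs, untreated and treated. It rose in wild-type, Irf1-/- and Irf3/7-/- BMDCs, by 4.20, 2.85 and 3.74 on the log2 scale, and its interval in treated Irf1-/- BMDCs overlapped those of both Tmem173-/- conditions. Clec4d (chr6:123262107-123275268), which encodes MCL, a receptor that associates with Mincle, was at 14.0 FPKM (10.4 to 17.7) and 107 FPKM (81.6 to 132) in wild-type BMDCs. Clec4d was at 7.85 and 21.9 FPKM in Irf1-/-, 16.2 and 120.0 in Irf3/7-/-, and 110.1 and 88.3 in Tmem173-/- BMDCs. The untreated Tmem173-/- level of Clec4d thus overlapped the treated wild-type and the treated Irf3/7-/- levels, and the treated Irf1-/- level was the lowest of the 4 treated ones.

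Clec4n (chr6:123229843-123247024) was at 482 FPKM (368 to 596) and 367 FPKM (269 to 465) in untreated and treated wild-type BMDCs, and the intervals overlapped. It was at 456 and 228 FPKM in Irf1-/-, 597 and 863 in Irf3/7-/-, and 1964 and 1692 in Tmem173-/- BMDCs. No comparison of treated with untreated cells called it, although the Irf1-/- intervals, 341 to 572 and 171 to 285 FPKM, did not overlap and the log2 change was -0.999, just inside 2-fold. Both Tmem173-/- levels were above those of all other conditions.

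The DCAR genes, whose products also pair with FcRγ, fell in wild-type, Irf1-/- and Irf3/7-/- BMDCs. Clec4b1 (chr6:123049962-123071555) was at 30.01 FPKM (22.8 to 37.2) in untreated and 0.329 FPKM (0 to 0.693) in treated wild-type BMDCs. It was at 66.9 and 6.78 FPKM in Irf1-/-, 32.1 and 0.979 in Irf3/7-/-, and 60.2 and 42.5 in Tmem173-/- BMDCs. Clec4b1 had the largest fall of all members in the 3 genotypes that responded, with log2 changes of -6.13, -3.28 and -4.90 in wild-type, Irf1-/- and Irf3/7-/- BMDCs, and its interval in treated wild-type BMDCs reached 0. Clec4b2 (chr6:123173023-123204671) was at 24.5 FPKM (16.9 to 31.1) and 4.77 FPKM (3.09 to 6.44) in wild-type BMDCs, at 1.25 FPKM in both Tmem173-/- conditions, at 9.18 and 1.99 in Irf1-/-, and at 11.4 and 5.22 in Irf3/7-/- BMDCs. It was highest in untreated wild-type BMDCs and lowest in Tmem173-/- BMDCs, whose intervals overlapped that of treated Irf1-/- BMDCs alone. Of the 35-base words in Clec4b1 transcripts, 15.6% also occur in transcripts of other genes, mostly Clec4a2, against 0.175% for Clec4b2, so reads of Clec4b1 could in part be split with Clec4a2.

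Clec5a, which encodes MDL-1, a DAP12-coupled receptor, was at 48.1 FPKM (36.3 to 59.8) and 22.9 FPKM (17.6 to 28.2) in wild-type BMDCs. It was at 39.8 and 24.1 FPKM in Irf1-/-, 47.9 and 30.2 in Irf3/7-/-, and 63.4 and 67.6 in Tmem173-/- BMDCs. The fall was called in wild-type BMDCs, with a log2 change of -1.07, and not in Irf1-/- (-0.72) or Irf3/7-/- BMDCs (-0.66). Its listed locus, chr6:40529091-40910666, spans 7 other genes of the table, Mgam among them, so the value may hold reads of these genes.

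In the DCIR family, Clec4a2 (chr6:123122690-123143999), which encodes the ITIM-bearing receptor DCIR, was at 35.2 FPKM (23.8 to 46.6) and 4.71 FPKM (3.48 to 5.94) in untreated and treated wild-type BMDCs. It was at 54.4 and 19.0 FPKM in Irf1-/-, 37.3 and 7.29 in Irf3/7-/-, and 87.9 and 70.5 in Tmem173-/- BMDCs. Clec4a3 (chr6:122952515-122969878), a close homolog, was at 78.1 FPKM (59.9 to 96.3) and 24.8 FPKM (18.8 to 30.7) in wild-type BMDCs, at 101 and 46.1 FPKM in Irf1-/-, at 77.6 and 20.6 in Irf3/7-/-, and at 70.4 and 61.7 in Tmem173-/- BMDCs. Both fell in wild-type, Irf1-/- and Irf3/7-/- BMDCs, and for both the treated Irf1-/- level lay above the treated wild-type level, with intervals apart. Clec4a1 was at 6.61 to 9.57 FPKM in 6 conditions and at 2.52 and 2.66 FPKM in untreated and treated Irf1-/- BMDCs, with no change called on treatment. Clec4a4, which encodes DCIR2, was at 0.275 to 1.24 FPKM and passed the filter on low values only through treated Tmem173-/- BMDCs. Words shared with other transcripts were 9.29% for Clec4a2, 19.0% for Clec4a4 and 1.056% for Clec4a3.

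In the Dectin-1 cluster, Clec7a (chr6:129461591-129472777) was at 367 FPKM (281 to 452) and 839 FPKM (629 to 1048) in untreated and treated wild-type BMDCs. It was at 258 and 366 FPKM in Irf1-/-, 404 and 960.0 in Irf3/7-/-, and 426 and 445 in Tmem173-/- BMDCs. It rose in wild-type and Irf3/7-/- BMDCs, by 1.19 and 1.25 on the log2 scale, and the Irf1-/- difference of 0.51 had overlapping intervals. Clec12a (chr6:129350244-129365303), which encodes the inhibitory receptor MICL, was at 55.4 FPKM (40.1 to 70.5) and 21.7 FPKM (16.1 to 27.2) in wild-type BMDCs, at 41.2 and 20.1 FPKM in Irf1-/-, at 39.4 and 12.6 in Irf3/7-/-, and at 119 and 98.5 in Tmem173-/- BMDCs. It fell in wild-type, Irf1-/- and Irf3/7-/- BMDCs and was highest in both Tmem173-/- conditions. Clec9a, which encodes the dead cell receptor DNGR-1, was at 0.255 to 2.29 FPKM in the wild-type, Tmem173-/- and Irf1-/- conditions and at 4.63 and 2.16 FPKM in untreated and treated Irf3/7-/- BMDCs. Clec1b, which encodes the podoplanin receptor CLEC-2, ranged from 0.629 FPKM in untreated wild-type to 3.53 FPKM in treated Irf3/7-/- BMDCs.

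In the Clec2 family, Clec2d (chr6:129180615-129186535), which encodes Clr-b, a ligand of an inhibitory NK cell receptor, was at 50.2 FPKM (35.1 to 62.3) and 89.1 FPKM (63.4 to 113) in wild-type BMDCs. It was at 42.5 and 86.2 FPKM in Irf1-/-, 50.1 and 101 in Irf3/7-/-, and 61.1 and 44.0 in Tmem173-/- BMDCs. The rise was called in Irf1-/- and Irf3/7-/- BMDCs, with log2 changes of 1.02 and 1.01, and the wild-type value of 0.83 missed 2-fold. That the Clec2d change differs between these genotypes was not tested. Clec2l (chr6:38663069-38680865) was at 4.28 FPKM (2.92 to 5.62) and 1.73 FPKM (1.09 to 2.37) in wild-type BMDCs, at 10.1 and 8.40 FPKM in Irf1-/-, at 15.8 and 10.4 in Irf3/7-/-, and at 12.1 and 7.78 in Tmem173-/- BMDCs. Both wild-type levels of Clec2l were below those of every knockout condition, and the interval of untreated wild-type BMDCs overlapped that of treated Tmem173-/- BMDCs alone. Clec2i reached 15.6 FPKM in treated wild-type BMDCs and was at 7.50 to 13.9 FPKM elsewhere. It was the 1 member above 10 FPKM that no comparison called. Clec2g ranged from 1.52 to 2.77 FPKM and Clec16a, which encodes an intracellular protein of the endosomal pathway, from 3.79 to 7.18 FPKM, with no call either. The loci of Clec2g and Clec2i overlap those of Gm15987 and BC035044, so these values may be shared.

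The endocytic receptors split. Mrc1 (chr2:14229414-14332023), the mannose receptor CD206, was at 9.52 FPKM (7.39 to 11.7) in untreated and 0.721 FPKM (0.462 to 0.985) in treated wild-type BMDCs. It was at 17.3 and 2.24 FPKM in Irf1-/-, 11.3 and 0.688 in Irf3/7-/-, and 42.7 and 48.7 in Tmem173-/- BMDCs. The treated wild-type and treated Irf3/7-/- levels of Mrc1 overlapped, and the treated Irf1-/- level lay above both. Clec10a (chr11:70166623-70170836), the macrophage galactose-type lectin MGL1, was at 22.9 FPKM (17.6 to 28.3) and 3.46 FPKM (2.30 to 4.61) in wild-type BMDCs, at 17.6 and 3.66 FPKM in Irf1-/-, at 14.1 and 4.75 in Irf3/7-/-, and at 45.6 and 33.3 in Tmem173-/- BMDCs. The 3 treated levels outside Tmem173-/- had overlapping intervals. Of the words in Clec10a transcripts 13.4% occur in those of other genes, mostly Mgl2. Ly75 (chr2:60293760-60383231), which encodes DEC-205, a receptor that carries antigen to the presentation pathways, was at 21.5 FPKM (16.6 to 26.3) and 89.8 FPKM (68.8 to 111) in wild-type BMDCs, at 14.0 and 70.9 FPKM in Irf1-/-, at 18.7 and 62.9 in Irf3/7-/-, and at 6.22 and 10.7 in Tmem173-/- BMDCs. All 3 treated levels of Ly75 outside Tmem173-/- BMDCs overlapped, and both Tmem173-/- levels were the lowest, with the treated interval overlapping that of untreated Irf1-/- BMDCs. Of the 8 DC-SIGN homologs and LSECtin, only Cd209a and Cd209c reached 1 FPKM in a condition. Cd209a was at 3.10 and 2.53 FPKM in Tmem173-/- and at 1.30 and 0.0796 in untreated and treated Irf1-/- BMDCs. It was at 0.182 FPKM in untreated wild-type BMDCs, listed at 0 in treated ones, and at 0.178 and 0.0189 FPKM in Irf3/7-/- BMDCs. Cd209c was at 1.97 and 2.27 FPKM in Tmem173-/- and at 0.593 to 1.19 FPKM elsewhere.

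**Figure D2:**
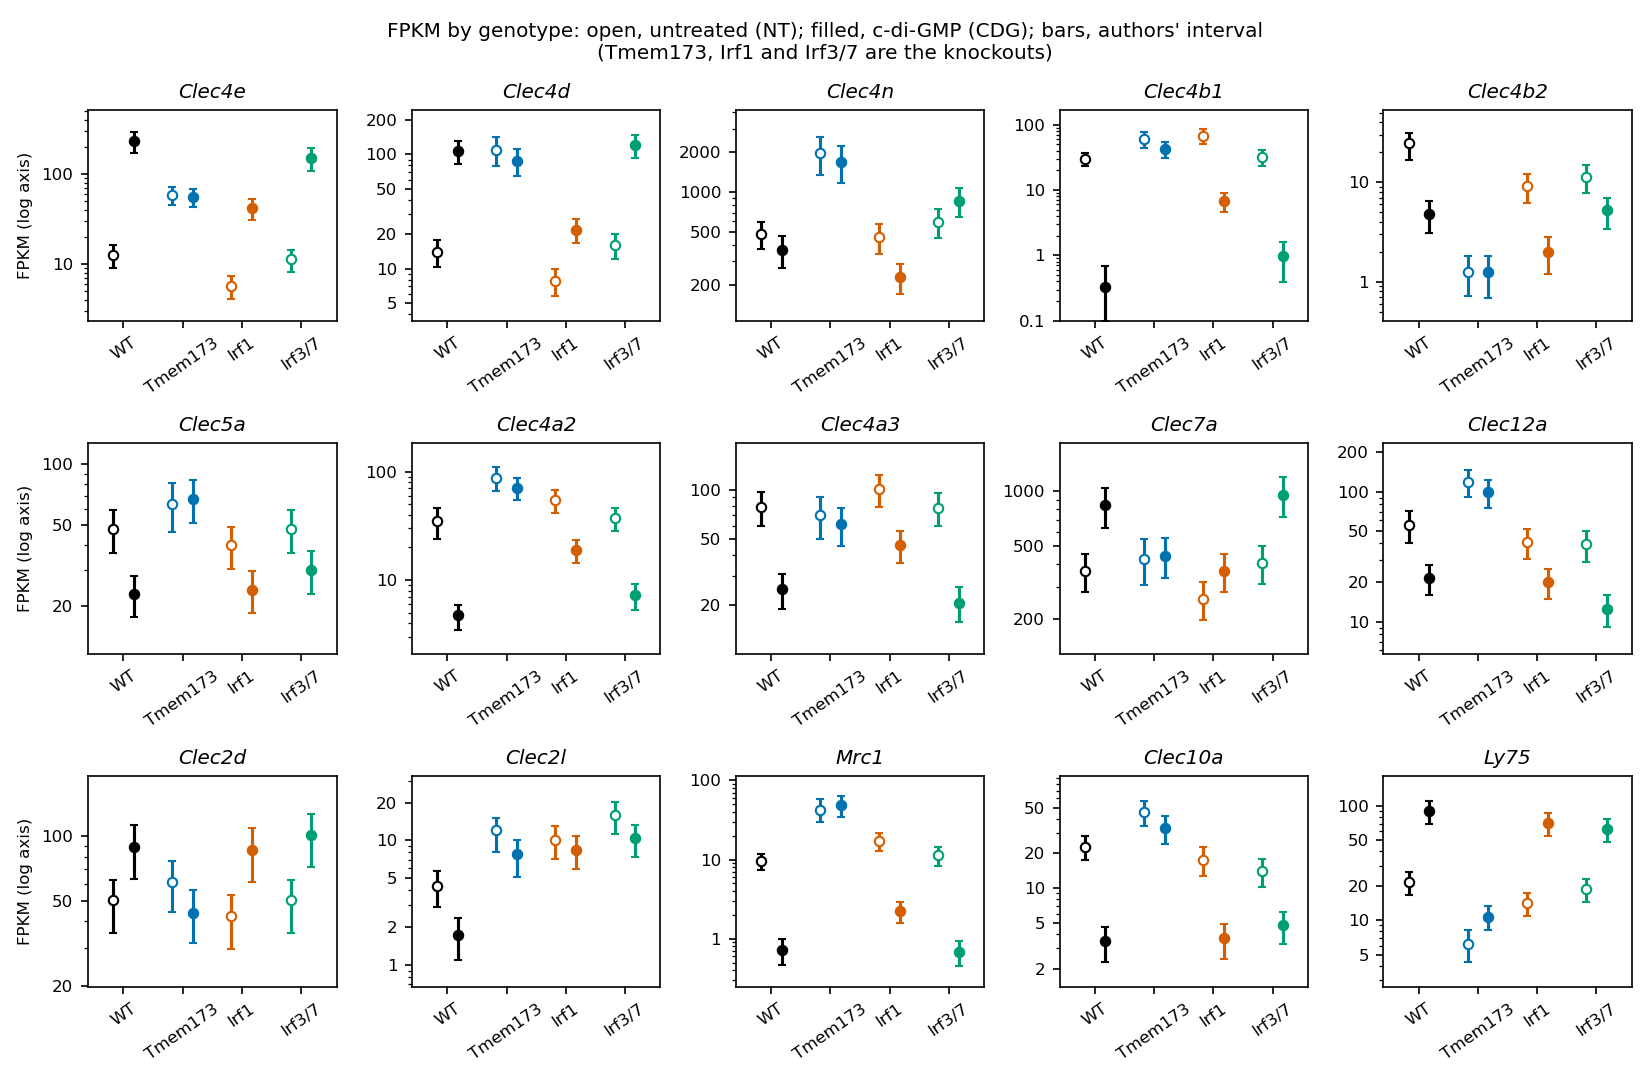
FPKM (log axis, a scale of its own in each panel) of the 15 members that reached 10 FPKM and were called in a comparison, by genotype. Open points are untreated and filled points c-di-GMP-treated BMDCs, each 1 value made from 2 samples, with bars for the authors' interval, of which the lower bound of Clec4b1 in treated wild-type BMDCs is 0 and runs off the axis. Open and filled points lie apart for Clec4e in wild-type, Irf1-/- and Irf3/7-/- BMDCs and on top of each other in Tmem173-/- BMDCs, at 58.1 and 55.7 FPKM.

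The same treatment was then read in each knockout. In Tmem173-/- BMDCs no member of 24 tested was called, in a comparison in which 0.0460% of 10867 genes were called higher and 0.00920% lower. The largest difference among the 15 members described in full was the 0.78 on the log2 scale of Ly75, at 6.22 FPKM (4.33 to 8.13) before and 10.7 FPKM (8.29 to 13.2) after treatment. The median was -0.04 over the members and -0.02 over all genes.

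Of the 13 members called in wild-type BMDCs, 10 were also called in the same direction in Irf1-/- and 11 in Irf3/7-/- BMDCs. The matching share over all genes was not computed, so these counts do not set the members apart from other genes. In Irf1-/- BMDCs Clec2d, Clec4d, Clec4e and Ly75 rose, and 8 members fell: Cd209a, Clec10a, Clec12a, Clec4a2, Clec4a3, Clec4b1, Clec4b2 and Mrc1. This was 4 higher and 8 lower of 22 tested, against 9.67% and 7.81% of 11164 genes, with a median of -0.42. Cd209a passed the filter only through its untreated level. Ly75 rose by 2.33 in Irf1-/- and by 2.06 in wild-type BMDCs on the log2 scale, while Clec4d rose by 1.47 and 2.92 in the same order. The Mrc1 log2 changes were -2.89 and -3.55, and those of Clec10a -2.24 and -2.69. The differences between genotypes in the size of a response could not be tested with 1 value per condition. The neutrophil marker sum was 2460 FPKM before and 1407 FPKM after treatment in Irf1-/- BMDCs, that of basophils and mast cells 74.9 and 121 FPKM and that of macrophages 32.4 and 59.8 FPKM, and their part in the changes was not tested. Of 6 macrophage markers tested, 2 were called higher, Mertk and Fcgr1, and Fcgr1 was at 5.39 and 35.1 FPKM. C1qa, C1qb, C1qc, Emr1 and Marco were lower after treatment, without a call, so the macrophage markers did not rise as a set.

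In Irf3/7-/- BMDCs 5 members were called higher and 8 lower of 21 tested, against 10.2% and 7.68% of 11283 genes, with a median of 0.04. Clec2d, Clec4d, Clec4e, Clec7a and Ly75 rose. Clec10a, Clec12a, Clec4a2, Clec4a3, Clec4b1, Clec4b2, Clec9a and Mrc1 fell. Of these, Clec4b1 and Mrc1 passed the filter only through their untreated level. Clec4d rose by 2.88, Clec4e by 3.74 and Ly75 by 1.75 on the log2 scale, and the log2 changes of Clec12a, Clec4a3 and Mrc1 were -1.64, -1.91 and -3.85. Clec9a fell by 1.064, with 4.63 FPKM (3.45 to 5.81) before and 2.16 FPKM (1.56 to 2.77) after treatment. The T and NK cell marker sum was 453 FPKM before and 1138 FPKM after treatment in these cultures, and its part in the changes was not tested. Of 6 such markers tested, 1 was called higher, Gzma, at 315 and 900 FPKM, which held most of the sum. Klrb1c was called lower, at 4.05 and 0.618 FPKM. Among 6 macrophage markers tested, Mertk was called higher and C1qa and C1qb lower, and their part in the changes was not tested.

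**Figure D3:**
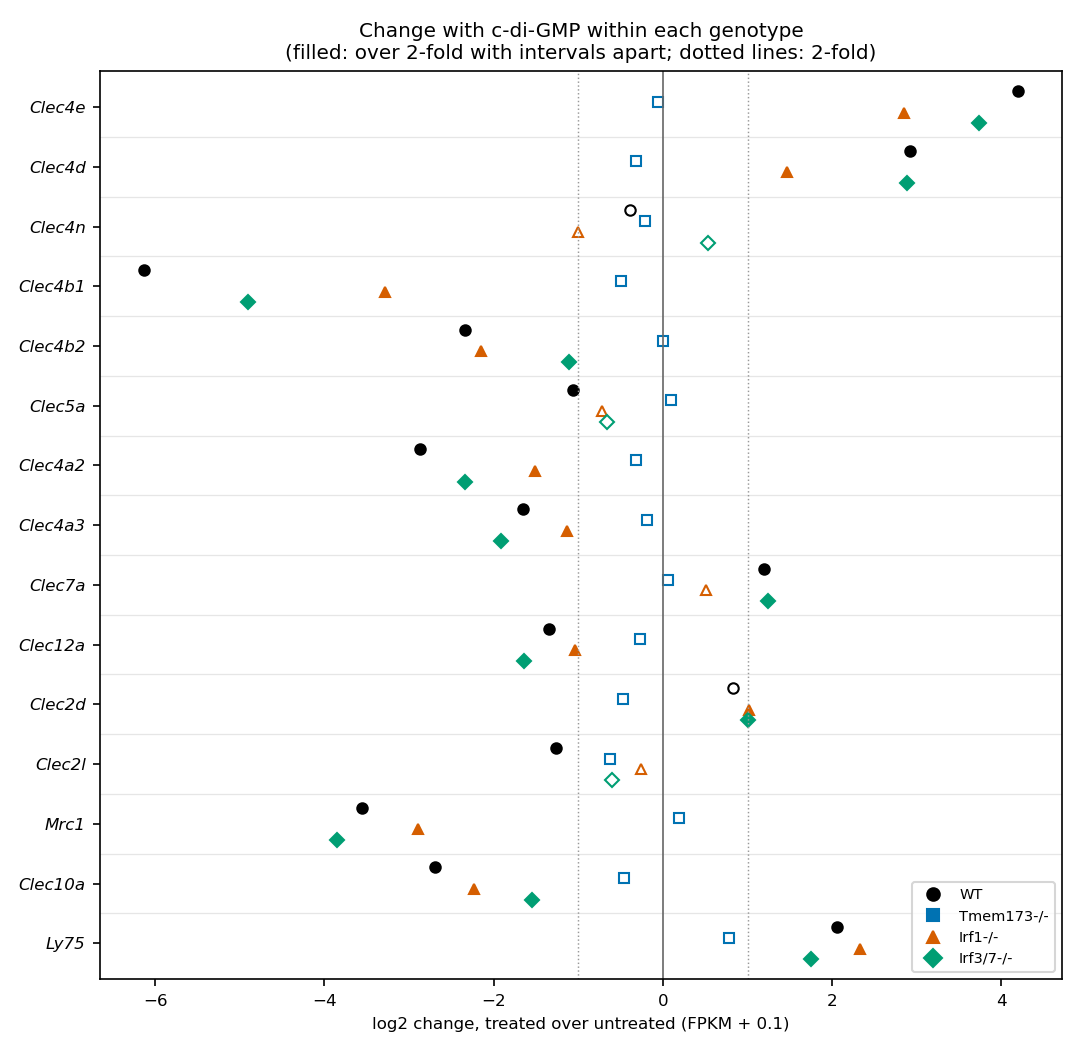
Log2 change of the 15 members with c-di-GMP in each genotype (treated over untreated, FPKM + 0.1). Filled symbols were called and dotted lines mark 2-fold. All Tmem173-/- symbols are open and lie between -0.63 and 0.78, while Clec4e, Clec4d and Ly75 lie to the right and Clec4b1, Clec4b2, Clec4a2, Clec4a3, Clec12a, Mrc1 and Clec10a to the left in the other 3 genotypes.

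The treated knockouts were next set against treated wild-type BMDCs, the control that all 3 comparisons share. In treated Tmem173-/- BMDCs 13 of 24 members tested were called higher and 4 lower, against 12.9% and 13.5% of 11318 genes, and the median was 1.18 over the members and 0.02 over all genes. Of the 13, 5 (Cd209a, Clec4a4, Clec4b1, Clec9a and Mrc1) were under 1 FPKM in treated wild-type BMDCs. They passed the filter only through their Tmem173-/- level, so that a call of them could only be higher. Of the 18 members that reached 1 FPKM in treated wild-type BMDCs, 8 were called higher and 4 lower. Among the 15 members described in full, the largest differences were those of genes that fell in wild-type BMDCs, 6.63 for Clec4b1, 5.89 for Mrc1, 3.87 for Clec4a2 and 3.23 for Clec10a on the log2 scale. Clec12a (2.18), Clec4n (2.21), Clec2l (2.11), Clec5a (1.56) and Clec4a3 (1.31) were also called higher, as were the low genes Clec9a (2.07), Clec4a4 (1.84), Cd209c (1.04) and Cd209a, which was listed at 0 in treated wild-type BMDCs. Ly75 (-3.05), Clec4e (-2.07), Clec4b2 (-1.86) and Clec2d (-1.02) were lower. Clec4d was not called: its log2 difference was -0.28, with 88.3 FPKM (64.5 to 112) against 107 FPKM (81.6 to 132). The neutrophil marker sum was 14533 FPKM in treated Tmem173-/- and 1905 FPKM in treated wild-type BMDCs. In the same order the T and NK cell sum was 2.30 and 391 FPKM and the macrophage sum 189 and 114 FPKM. The macrophage markers did not differ as a set: of 7 tested, C1qa, C1qb, C1qc and Marco were called higher and Mertk lower. The part of these cell types in the differences was not tested.

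In treated Irf1-/- BMDCs 4 members were called higher and 5 lower than in treated wild-type BMDCs, of 21 tested, against 2.65% and 4.91% of 11079 genes. The median was -0.11 over the members. Clec4b1 (4.001), Clec2l (2.22), Clec4a2 (1.99) and Mrc1 (1.51) were higher, and Clec4b1 and Mrc1 passed the filter only through their Irf1-/- level. Clec4e (-2.49) and Clec4d (-2.28), Clec4a1 (-1.49), Clec4b2 (-1.22) and Clec7a (-1.20) were lower. The calls of Mrc1 and Clec4b2 were lost with a pseudocount of 1 FPKM, which gave 0.91 and -0.95, and with a minimum of 5 FPKM, under which neither was tested. Of the 6 receptors grouped as pairing with FcRγ or DAP12, 1, Clec4b1, was thus higher and 3, Clec4d, Clec4e and Clec4b2, were lower at the RNA level. Clec7a is outside this group. Clec4n differed by -0.68, with intervals of 171 to 285 and 269 to 465 FPKM, and Ly75 by -0.34. The T and NK cell marker sum was 13.9 FPKM in treated Irf1-/- and 391 FPKM in treated wild-type BMDCs, and the macrophage sum 59.8 and 114 FPKM, and their part in these differences was not tested.

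In treated Irf3/7-/- BMDCs 4 members of 20 tested were called higher and none lower, against 4.61% and 2.69% of 11209 genes, with a median of 0.18. Higher were Clec2l (2.52), Clec9a (1.99), Clec1b (1.77) and Clec4n (1.23), of which Clec9a and Clec1b were under 1 FPKM in treated wild-type BMDCs. Clec4n was at 863 FPKM (646 to 1079.8) against 367 FPKM (269 to 465). Clec4e differed by -0.63 and Clec4d by 0.17, and their intervals overlapped those of wild-type BMDCs. All 7 basophil and mast cell markers were called higher in treated Irf3/7-/- BMDCs, with a sum of 269 FPKM against 88.4 FPKM, as were all 5 T and NK cell markers tested, with a sum of 1138 FPKM against 391 FPKM, and their part in these differences was not tested.

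Treated Irf1-/- and treated Irf3/7-/- BMDCs were also compared directly. Of 21 members tested, 4 were called higher and 7 lower in Irf1-/- BMDCs, against 3.22% and 6.62% of 11235 genes, with a median of -0.33 over the members and 0.04 over all genes. Higher were Clec4b1 (2.67), Mrc1 (1.57), Clec4a2 (1.37) and Clec4a3 (1.16), all genes that fell on treatment in both genotypes. Lower were Clec9a (-2.67), Clec4d (-2.45), Clec4n (-1.92), Clec4e (-1.86), Clec4a1 (-1.73), Clec7a (-1.39) and Clec4b2 (-1.35). Clec4b1 and Mrc1 were under 1 FPKM in treated Irf3/7-/- BMDCs and passed the filter only through their Irf1-/- level. Clec9a passed it only through its Irf3/7-/- level. Of the 6 receptors grouped as pairing with FcRγ or DAP12, 1 was thus higher and 4 were lower in Irf1-/- BMDCs. Clec7a and Clec9a are outside this group. The call of Mrc1 was lost with a pseudocount of 1 FPKM, which gave 0.94, and with a minimum of 5 FPKM. The T and NK cell marker sums of these conditions were 13.9 and 1138 FPKM, those of basophils and mast cells 121 and 269 FPKM and those of macrophages 59.8 and 116 FPKM, and their part was not tested.

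Untreated knockouts were set against untreated wild-type BMDCs to read the levels before stimulation. In untreated Tmem173-/- BMDCs 12 members of 23 tested were called higher and 2 lower, against 5.04% and 5.95% of 11101 genes, and the median was 1.002 over the members and 0.01 over all genes. Activating receptors were among the higher ones: Clec4d (2.96), Clec4e (2.19), Clec4n (2.03) and, right at 2-fold, Clec4b1 (1.002). Mrc1 (2.15), Clec2l (1.48), Clec4a2 (1.32), Clec12a (1.10), Clec1b (1.79), Clec9a (1.04), Cd209a (3.50) and Cd209c (1.25) made up the rest. Of these, Cd209a, Cd209c and Clec1b were under 1 FPKM in untreated wild-type BMDCs. Clec4b2 (-4.19) and Ly75 (-1.77) were lower. In untreated Tmem173-/- and wild-type BMDCs the neutrophil marker sums were 20003 and 4015 FPKM and those of T and NK cells 2.79 and 439 FPKM. Those of macrophages were 217 and 138 FPKM, and of 7 macrophage markers tested only Marco was called, as higher. The part of these cell types in the differences was not tested.

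In untreated Irf1-/- BMDCs 3 members of 23 were called higher and 3 lower, against 1.26% and 3.52% of 11017 genes, with a median of -0.21. Cd209a (2.31), Clec2l (1.22) and Clec4b1 (1.15) were higher, and Clec4a1 (-1.70), Clec4b2 (-1.41) and Clec4e (-1.15) lower. Cd209a was under 1 FPKM in untreated wild-type BMDCs and passed the filter only through its Irf1-/- level. The Irf1-/- level of Clec4e was thus below wild-type before and after treatment. In untreated Irf1-/- BMDCs 6 of 7 macrophage markers tested were called lower, with a sum of 32.4 FPKM against 138 FPKM, and so were all 6 T and NK cell markers tested, with 12.7 FPKM against 439 FPKM. In untreated Irf3/7-/- BMDCs 2 members of 21 were called higher, Clec9a (2.08) and Clec2l (1.86), and 1 lower, Clec4b2 (-1.10), against 1.17% and 0.863% of 11004 genes, with a median of -0.01. There 6 of 7 basophil and mast cell markers were called higher, with a sum of 178 FPKM against 76.6 FPKM. The part of these cell types in the differences was not tested. All 3 untreated comparisons share the wild-type value.

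**Figure D4:**
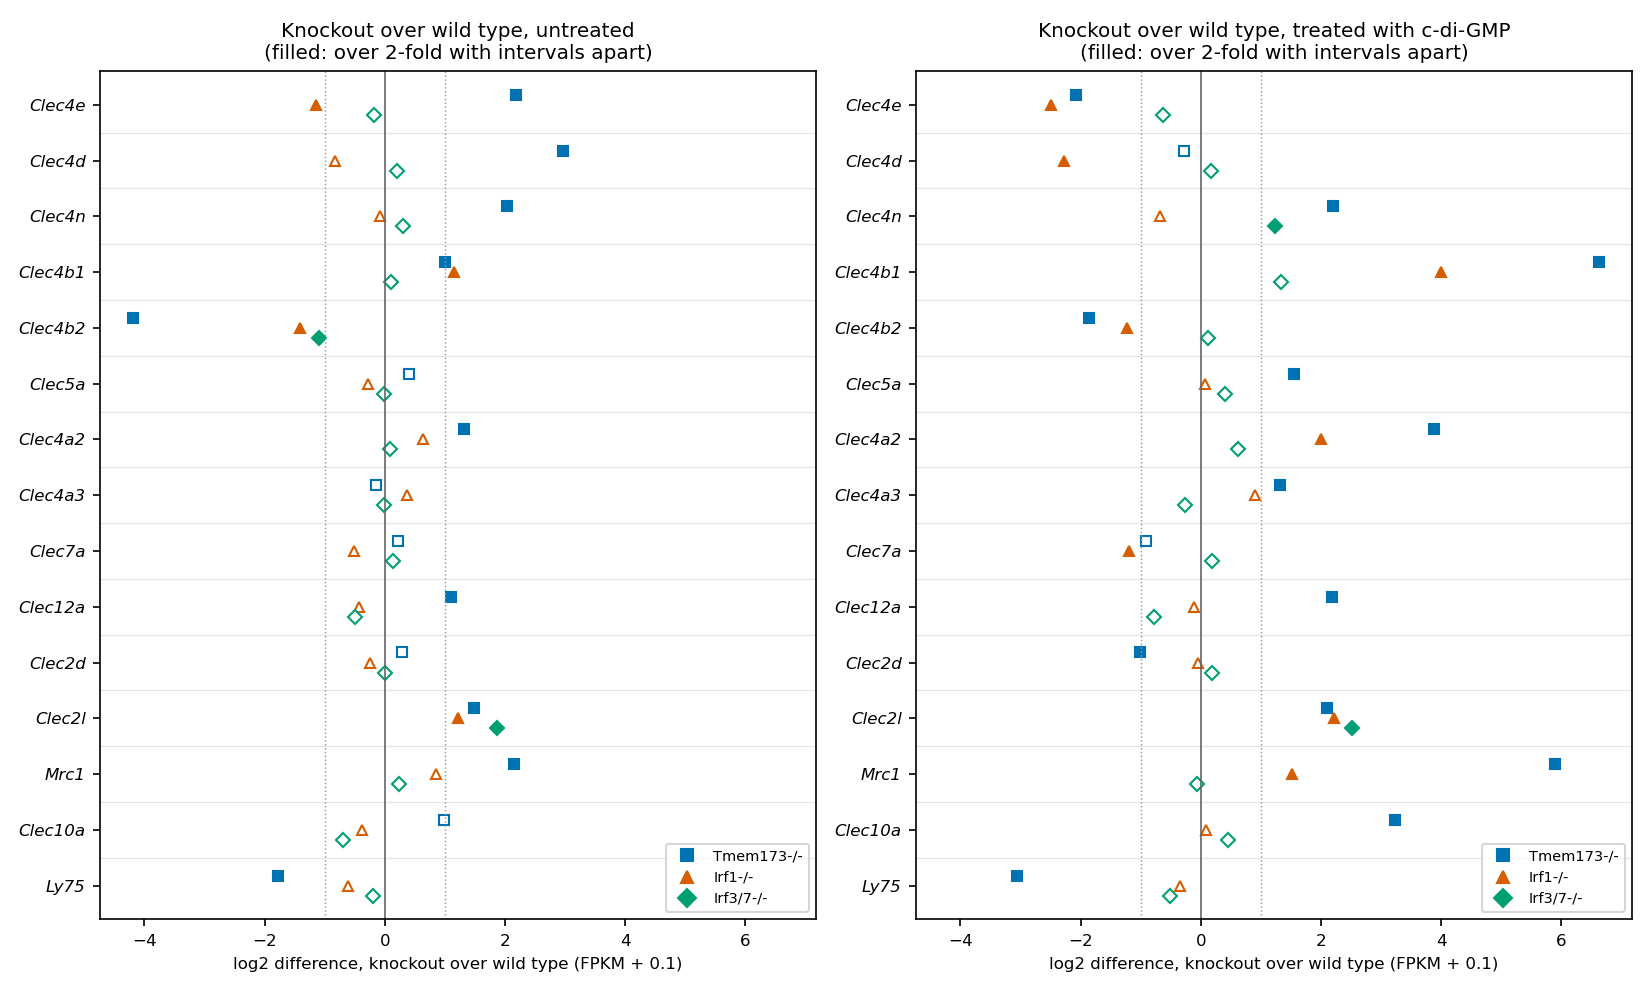
Log2 difference of the 15 members between each knockout and wild-type BMDCs (FPKM + 0.1), untreated on the left and c-di-GMP-treated on the right. Filled symbols were called and dotted lines mark 2-fold. The Tmem173-/- symbols reach 6.63 for Clec4b1 and -3.05 for Ly75 on the right and -4.19 for Clec4b2 on the left, while Irf3/7-/- symbols lie near 0 for most genes.

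Of the 40 genes, 23 lie on chromosome 6, 10 on chromosome 8 and 7 elsewhere. A cluster of 9 Clec4 genes (chr6:122921848-123289871, 368 kb) held both the largest rise and the largest fall of wild-type BMDCs. In the order of their starts, Clec4a1 did not change, Clec4a3, Clec4b1, Clec4a2 and Clec4b2 fell in all 3 responding genotypes, Clec4a4 stayed low, Clec4n was not called, and Clec4d and Clec4e rose at the far end. The wild-type log2 changes along this order were -0.13, -1.65, -0.55, -6.13, -2.87, -2.34, -0.39, 2.92 and 4.20. Of these genes, Clec4a4 did not pass the filter on low values in wild-type BMDCs. A second cluster of 11 genes (chr6:128662385-129472777, 810 kb) holds Clec2 genes and the Dectin-1 group. There Clec7a at its end rose in wild-type BMDCs and Clec12a fell, with Clec12b, Clec1b, Clec9a and Clec1a between them at low levels.

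**Figure D5:**
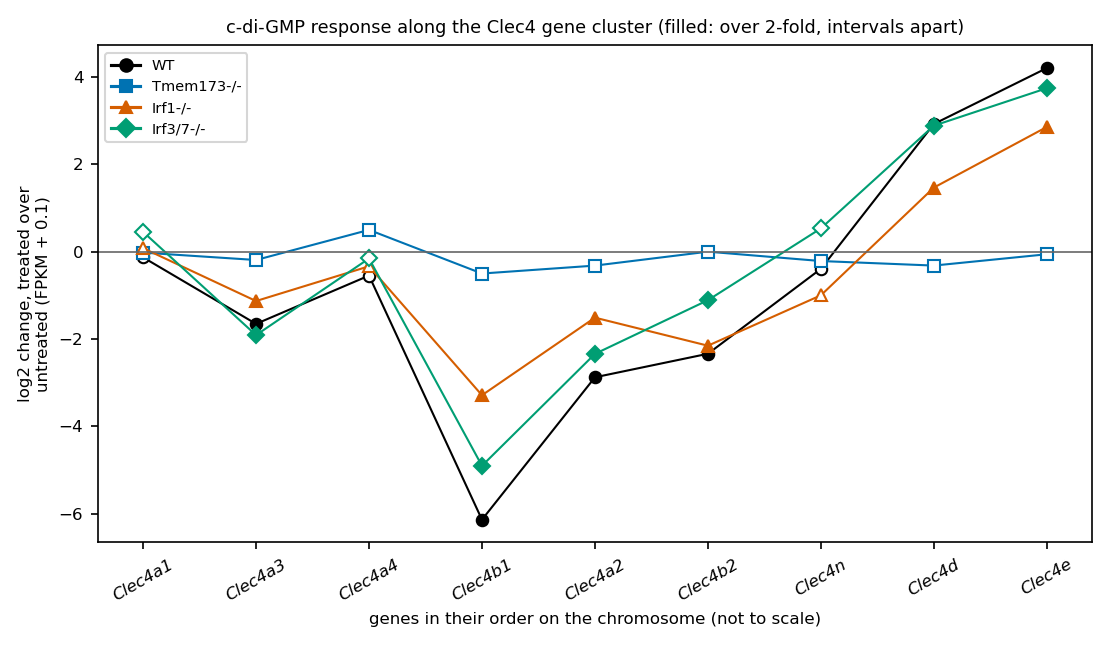
Log2 change with c-di-GMP (treated over untreated, FPKM + 0.1) of the 9 genes of the Clec4 cluster, in their order on the chromosome and not to scale, with 1 line per genotype and filled symbols for calls. In wild-type BMDCs the line falls to -6.13 at Clec4b1 and climbs to 4.20 at Clec4e, and the Tmem173-/- line stays near 0 with open symbols only.

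A list of 29 genes that act below these receptors was read in the same way. In wild-type BMDCs 4 rose on treatment (Src, Pik3ap1, Malt1 and Trim62) and 3 fell (Fgr, Vav3 and Egr3), of 29 tested, with a median of -0.05. These are 13.8% and 10.3% of the list, near the 10.5% and 9.96% of all genes. No gene of the list was called in Tmem173-/- BMDCs, where 28 were tested. In Irf1-/- BMDCs 2 rose (Src and Pik3ap1) and 3 fell (Fgr, Vav3 and Egr3), and in Irf3/7-/- BMDCs 3 rose (Fcer1g, Pik3ap1 and Cblb) and 2 fell (Prkcd and Nfatc2), of 29 tested in each, where 7.68% to 10.2% of all genes were called in a direction. Src, a kinase, was at 10.5 and 58.1 FPKM in wild-type, 9.03 and 43.7 in Irf1-/-, 14.7 and 18.3 in Irf3/7-/-, and 4.86 and 4.81 in Tmem173-/- BMDCs. The rise of Src was thus called in wild-type and Irf1-/- BMDCs, and its treated Irf3/7-/- level was below the treated wild-type level (-1.66). Pik3ap1, an adaptor of PI3 kinase, was at 25.2 and 51.5 FPKM in wild-type, 10.7 and 22.0 in Irf1-/-, 14.2 and 46.0 in Irf3/7-/-, and 23.0 and 33.9 in Tmem173-/- BMDCs. It was the 1 listed gene called lower in Irf1-/- than in wild-type BMDCs, untreated (-1.23) as well as treated (-1.22).

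Against treated wild-type BMDCs, 5 listed genes were higher and 4 lower in treated Tmem173-/-, 1 higher (Egr2) and 1 lower (Pik3ap1) in treated Irf1-/-, and 1 higher (Egr3) and 1 lower (Src) in treated Irf3/7-/- BMDCs. The shares of the list in treated Tmem173-/- BMDCs, 17.2% and 13.8%, lie beside 12.9% and 13.5% of all genes, and those in the other 2, 3.45% in either direction, beside 2.65% to 4.91%. Fgr, a Src family kinase, was at 89.9 and 91.3 FPKM in Tmem173-/- BMDCs and at 11.1 to 33.2 FPKM in the other 6 conditions. Egr3, a transcription factor, was at 4.80 and 2.24 FPKM in wild-type, 7.82 and 1.60 in Irf1-/-, 6.32 and 4.93 in Irf3/7-/-, and 4.74 and 7.36 in Tmem173-/- BMDCs. Vav3, an exchange factor, ranged from 3.75 FPKM in treated Irf1-/- to 10.2 FPKM in untreated Irf1-/- BMDCs. Nfatc2, a transcription factor, ranged from 4.39 FPKM in treated Irf3/7-/- to 15.1 FPKM in untreated Irf1-/- BMDCs. Between the treated Irf1-/- and Irf3/7-/- conditions 3 listed genes were called higher and 3 lower in Irf1-/- BMDCs, 10.3% in either direction, beside 3.22% and 6.62% of all genes. Among the untreated knockouts, Fcer1g, Tyrobp and Fgr were among the genes called higher and Src was called lower in Tmem173-/- BMDCs, none was higher and 1 lower in Irf1-/-, and none was called either way in Irf3/7-/- BMDCs. In these 3 comparisons 0.863% to 5.95% of all genes were called in a direction. The adaptor genes Fcer1g and Tyrobp were at 1045 and 1181 FPKM in untreated Tmem173-/- and at 436 and 391 FPKM in untreated wild-type BMDCs. The shared kinase Syk was at 59.4 to 93.8 FPKM in all conditions, and no comparison called it.

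A list of 14 other C-type lectin-like surface proteins, which the name rule leaves out, was read beside the members. Between 7 and 8 of the 14 genes passed the filter in any comparison. In wild-type BMDCs Cd69, an early activation antigen, and Olr1, an oxidised LDL receptor, rose, and Mgl2, the homolog of Clec10a, and Asgr2, an asialoglycoprotein receptor subunit, fell, 2 of 7 tested in either direction, beside 10.5% and 9.96% of all genes. Mgl2 was at 1115 and 184 FPKM in wild-type, 1483 and 194 in Irf1-/-, 947 and 247 in Irf3/7-/-, and 607 and 506 in Tmem173-/- BMDCs. Asgr2 was at 44.3 and 2.74 FPKM in wild-type, 78.8 and 4.52 in Irf1-/-, 32.2 and 3.69 in Irf3/7-/-, and 79.9 and 55.4 in Tmem173-/- BMDCs. Both fell in the 3 responding genotypes, as did Clec10a and Mrc1. Cd69 was at 20.9 and 120.3 FPKM in wild-type, 15.5 and 111 in Irf1-/-, 20.2 and 92.6 in Irf3/7-/-, and 7.91 and 8.01 in Tmem173-/- BMDCs. Olr1 was at 35.7 and 80.5 FPKM in wild-type, 43.7 and 63.5 in Irf1-/-, 62.7 and 190.2 in Irf3/7-/-, and 22.5 and 31.5 in Tmem173-/- BMDCs. Cd93 and Cd302, lectin-like surface proteins, were each higher in Tmem173-/- than in wild-type BMDCs, untreated (1.55 and 2.05) as well as treated (1.31 and 1.20). Between treated Irf1-/- and treated wild-type BMDCs no gene of this list was called, of 8 tested, beside 2.65% of all genes higher and 4.91% lower. Between treated Irf3/7-/- and treated wild-type BMDCs 1 of 7 tested, Olr1 (1.24), was called higher, beside 4.61% of all genes higher and 2.69% lower.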

How the data were processed

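RNA-seq was carried out by the authors on BMDCs, in 16 samples that the labels place in 8 groups (4 genotypes, with or without c-di-GMP), with stranded mRNA libraries and paired-end reads. The authors ran Cuffdiff (version 1.06 and build mm9 per the submitters' processing notes) and deposited a table that gives, for every gene and condition, 1 FPKM, both bounds of its interval and a status. For that run, the sources used here name no aligner, annotation or counting strand. The replicates of a condition were combined before deposition, which leaves neither a spread nor a significance test. Columns of 1 further condition, which match no sample, were not used. The header of treated Tmem173-/- BMDCs spells the treatment GDP and was read as c-di-GMP, the 1 treated group that carries this genotype name. The listed loci match GRCm38.p6 rather than mm9: all 40 members overlapped their RefSeq gene of that build and 25 had the same start and end. Coordinates are therefore given on GRCm38, counted from 1.

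Members were found by symbol, all with status OK in all 8 conditions. Values were compared as log2(FPKM + 0.1) over the whole table, and a call needed over 2-fold, non-overlapping intervals, a minimum of 1 FPKM in either condition and status OK in both. The members, the lists of signalling genes, other lectins and cell type markers, and the comparisons were chosen with earlier results of these data known. Members that reached 10 FPKM and were called in at least 1 of 11 comparisons are given with all 8 values, other members by range, and of each list at most 6 genes by the largest change in the 7 comparisons within a genotype or of a treated knockout with treated wild-type BMDCs. Syk, Fcer1g, Tyrobp and the single cell type markers given by name were named after their values were seen. The text leaves out some results of the signalling list. Shared words are the share of 35-base words of a gene's GENCODE M21 transcripts that occur in transcripts of other genes. Promoter windows of 300 bases and their coordinates are from RefSeq, GRCm38.p6. Every call was recomputed under 7 alternatives: a pseudocount of 1 and of 0.01 FPKM, no filter, a minimum of 5 FPKM, a threshold of 1.5-fold, the fold change alone and median centring. Scripts ran under python 3.11.15 with numpy 2.4.6, pandas 2.3.3, and matplotlib 3.10.9.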

Additional observations from a re-analysis of the deposited data

Results flagged for a closer look

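Clec4n, the gene of Dectin-2, had log2 changes of opposite sign on treatment in the Irf1-/- and the Irf3/7-/- conditions. The log2 change was -0.999 in Irf1-/- BMDCs, from 456 to 228 FPKM, and 0.53 in Irf3/7-/- BMDCs, from 597 to 863 FPKM, a difference of 1.53. Neither change was called. The Irf3/7-/- intervals, 446 to 748 and 646 to 1080 FPKM, overlapped, while the Irf1-/- intervals did not. The difference was not tested, and each FPKM is 1 value made from 2 samples. The T and NK cell marker sum was 12.7 and 13.9 FPKM in the Irf1-/- and 453 and 1138 FPKM in the Irf3/7-/- conditions, and its part in this difference was not tested. On treatment of Irf3/7-/- BMDCs, Gzma alone of these markers was called higher and Klrb1c was called lower.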

How the results depend on the processing

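Of the 165 values of the 15 members described in full, 84 were called, 76 of these calls held under all 7 alternatives, and none changed sign. A pseudocount of 1 FPKM lost 7 calls and a minimum of 5 FPKM lost 5. Both settings lost Clec2l in wild-type BMDCs on treatment, Mrc1 and Clec4b2 between treated Irf1-/- and wild-type BMDCs, and Mrc1 between treated Irf1-/- and Irf3/7-/- BMDCs. The former also lost Clec2d (0.998) and Clec4b2 (-0.994) in Irf3/7-/- BMDCs on treatment and Clec4b1 (0.98) in untreated Tmem173-/- over wild-type BMDCs, and the latter Clec4b2 between treated Tmem173-/- and wild-type BMDCs. Median centring lost 1, that of Clec4b1 in untreated Tmem173-/- over wild-type BMDCs (0.99), and added 1, that of Clec4n in treated over untreated Irf1-/- BMDCs (-1.0005). The threshold of 1.5-fold added 10. Counts of members called stayed within 1.5 times of those reported except in 2 places. In Tmem173-/- BMDCs the threshold of 1.5-fold gave 1 call, Ly75, in place of none. Between treated Irf3/7-/- and treated wild-type BMDCs the minimum of 5 FPKM left 2 calls of 4, since fewer genes were tested. No paired analysis was possible because the authors combined the replicates and the columns carry no replicate numbers, and for the same reason no replicate could be left out. The precision of a value rests on the authors' interval alone.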
